A study of Mus musculus with 4 samples.

Results

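The cytosolic and mitochondrial heat shock chaperones are a set of 10 genes, *Hspa8*, *Hsp90aa1*, *Hsp90ab1*, *Hspd1*, *Hspe1*, *Hspa4*, *Hspa9*, *Hsph1*, *Dnajb1* and *Dnaja1*, which are taken here by name. Of these, 9 have a value in both deposited tables, out of 9779 genes with a value, and *Hsp90ab1* was not analysed here. RNA-Seq was performed on undifferentiated female mouse embryonic stem cells (ESCs) of the LF2 line, strain 129/J, with 1 library for each of 4 conditions. The cells had been grown on fibroblast feeders and passaged to remove them, and each condition lasted 24 hr. The PBS+DMSO cells received both vehicles, the PBS+GSK-J4 cells 10 μM GSK-J4, the AA+DMSO cells 50 μg/ml L-ascorbic acid (AA, vitamin C), and the AA+GSK-J4 cells both agents at these doses. GSK-J4 is a small-molecule inhibitor of JmjC histone demethylases, and AA is a cofactor that can raise the activity of such enzymes. The study asked which transcripts GSK-J4 changes in the absence and presence of AA. There are no replicates, so no difference below has an error or a p-value, and all libraries come from 1 cell line.

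Chaperones of the Hsp70 class bind unfolded stretches of other proteins in a cycle driven by ATP. J-domain proteins (Hsp40) bring clients and start the ATP step, and nucleotide exchange factors such as the Hsp110 proteins end it. Hsp90 acts later on signalling proteins and kinases, with many co-chaperones. In mitochondria, Hsp70 pulls in new proteins and the Hsp60-Hsp10 chamber folds them. Several of these genes are transcribed by heat shock factor 1 (Hsf1) under stress, and ESCs keep high levels of them without stress.

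Heat shock factors bind heat shock elements, alternating units of GAA and TTC with 2 bases between units, and such elements are shown here because few promoters hold the longer runs found in some of these genes. RefSeq promoter windows (mouse build GRCm38.p6, 250 bases before to 50 after each annotated start) were at hand for 6 of the 10 genes, and *Hspa8*, *Hsp90aa1*, *Hsp90ab1* and *Hspa9* are named only. A pair of units, GAANNTTC or TTCNNGAA, which both read the same on either strand, occurred in the windows of 17.0% of 27025 genes. Runs of 3 units occurred in 0.662% of genes and runs of 4 units in 8 genes. A longer run also counts as each shorter one. Of the 6 genes with a window, 4 (*Hspd1*, *Hspe1*, *Hsph1* and *Dnaja1*) held a pair, 3 held 3 units, and *Hspd1* and *Hspe1* held 4. These last 2 genes lie head to head, and the run of 4 units lies between the *Hspe1* start and one of 2 annotated *Hspd1* starts, which are 216 bases apart. The other *Hspd1* start lies inside *Hspe1*, and its window holds no match. The stretches with the longest runs read as below, 5′ to 3′, with the heat shock element in capitals.
*Hspe1* and *Hspd1*, chr1:55088053-55088082, strand of *Hspe1* (+): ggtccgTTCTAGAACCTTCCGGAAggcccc
*Hsph1*, chr5:149636279-149636308, strand of *Hsph1* (-): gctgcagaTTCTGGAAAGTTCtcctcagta
At its nearest base, the first element lies 72 bases before the *Hspe1* start and 127 bases before that *Hspd1* start. The *Hsph1* element lies 15 to 27 bases after the downstream of its 2 annotated starts. *Dnaja1* held only a pair, and the windows of *Dnajb1* and *Hspa4* held none, which says only that these letters are not in those windows.

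All values are FPKM, which counts sequenced fragments relative to the length of a gene's exons and the size of the library, so that levels of different genes can be set side by side. Differences are log2 ratios of FPKM + 1, taken over the genes that reached an FPKM of 1 in one or the other library compared. Of 12 ESC marker genes, 11 have a value, and *Pou5f1* (Oct4) led them in every library, between 480 and 867 FPKM. All 11 were lower in the GSK-J4 library of each comparison. So were most expressed genes, 5798 of 9196 without AA and 5684 of 9139 with AA. Of genes that reached 30 FPKM, 1880 of 2161 and 1807 of 2102 were lower. The FPKM of the 11 markers summed to 2410 with PBS+DMSO, 1435 with PBS+GSK-J4, 2189 with AA+DMSO and 1293 with AA+GSK-J4. Of 10 fibroblast markers, the 4 with a value summed to 21.0 and 19.5 FPKM in the DMSO libraries and to 30.2 and 26.2 in the GSK-J4 libraries, *Acta2* being the highest of them. Of 11 markers of differentiated lineages, 4 have a value and their sum was between 4.71 and 6.38 FPKM. All genes together summed to 360621 FPKM with PBS+DMSO, 275575 with PBS+GSK-J4, 342327 with AA+DMSO and 271205 with AA+GSK-J4. The values come without read counts. The steps between low values gave relative depths of 0.641, 0.795 and 0.524 for PBS+GSK-J4, AA+DMSO and AA+GSK-J4 against PBS+DMSO, and since other ratios scored nearly as well, the depth is not settled. In bulk RNA, fewer cells of a type and less RNA per cell cannot be told apart. The part of these differences between libraries in the results below was not tested.

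In vehicle-treated ESCs, these genes were abundant and spanned a wide range. *Hspa8* was the gene with the 7th highest FPKM in PBS+DMSO, at 2552 FPKM, and *Dnajb1* was the lowest member, at 35.1 FPKM and rank 1786. The order from high to low was *Hspa8*, *Hsp90aa1*, *Hspd1*, *Hspe1*, *Hspa9*, *Dnaja1*, *Hspa4*, *Hsph1* and *Dnajb1* in both DMSO libraries. Together the 9 genes made up 1.65% of all FPKM in PBS+DMSO and 1.61% in AA+DMSO. Their share was 1.01% in PBS+GSK-J4 and 1.08% in AA+GSK-J4. *Hspa8* alone gave much of the sum, and without it the shares were 0.939%, 0.929%, 0.643% and 0.712% in the same order. A share does not move with a common scaling factor of a library.

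**Figure D1:**
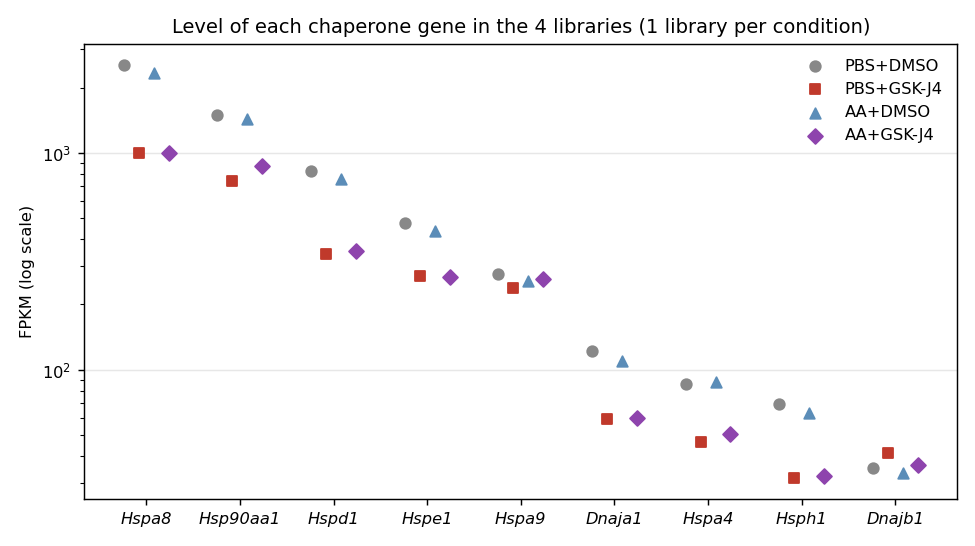
FPKM (log scale) of the 9 chaperone genes, 1 point per library, ordered by level in PBS+DMSO; there are no error bars because each condition has 1 library. Both GSK-J4 points lie under both DMSO points for 7 genes, overlap with them for *Hspa9*, and lie above them for *Dnajb1*.

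The cytosolic Hsp70 was lower in both GSK-J4 libraries. *Hspa8* (Hsc70, chr9:40800691-40805202 in mm10) is the constitutive Hsp70 of the cytosol, which also uncoats clathrin vesicles. Its level was 2552 FPKM in PBS+DMSO and 997 FPKM in PBS+GSK-J4, and 2336 FPKM in AA+DMSO and 1001 FPKM in AA+GSK-J4. The 2 DMSO libraries were both above the 2 GSK-J4 libraries. GSK-J4 against DMSO gave a log2 ratio of -1.35 without AA and -1.22 with AA, and the GSK-J4 level was 39.1% and 42.9% of its control. The gene moved from rank 7 to rank 40 by FPKM without AA, and from rank 8 to rank 41 with AA.

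The Hsp110 genes, *Hsph1* and *Hspa4*, encode relatives of Hsp70 that exchange its nucleotide and keep aggregates soluble. *Hsph1* (Hsp105, chr5:149616546-149636345) stood at 69.4 FPKM with PBS+DMSO, 31.5 with PBS+GSK-J4, 63.2 with AA+DMSO and 32.3 with AA+GSK-J4, log2 ratios of -1.11 without AA and -0.95 with AA. *Hspa4* (Apg-2, chr11:53257771-53300718) stood at 85.9, 46.5, 87.8 and 50.4 FPKM in the same order, log2 ratios of -0.87 and -0.79. For both genes the DMSO libraries lay above the GSK-J4 libraries. *Hsph1* went from rank 911 to 1520 without AA, and with AA it went from 957 to 1478.

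The J-domain partners of Hsp70 differed from each other. *Dnaja1* (chr4:40722466-40735277), a class A J-domain protein that hands clients to Hsc70, stood at 122 FPKM with PBS+DMSO, 58.9 with PBS+GSK-J4, 109 with AA+DMSO and 59.7 with AA+GSK-J4. This gave a log2 ratio of -1.04 without AA and -0.86 with AA. *Dnajb1* (Hsp40, chr8:83608128-83612059), a class B J-domain protein that works with Hsp70 on aggregates and in the feedback on Hsf1, stood at 35.1, 41.2, 33.2 and 36.3 FPKM. Both of its GSK-J4 libraries were above both DMSO libraries, by log2 ratios of 0.23 and 0.12, so it did not share the lower level of *Dnaja1* and *Hspa8*. Its rank went from 1786 to 1134 without AA, and with AA it went from 1826 to 1290.

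*Hsp90aa1* (chr12:110690263-110696437) encodes Hsp90α, the form of cytosolic Hsp90 that stress induces most. Its level was 1502 FPKM with PBS+DMSO, 745 with PBS+GSK-J4, 1437 with AA+DMSO and 869.5 with AA+GSK-J4. GSK-J4 against DMSO gave -1.01 and, with AA, -0.72 on the log2 scale, the widest gap between the comparisons among these genes. Even so, both GSK-J4 libraries lay under both DMSO libraries, and the rank went from 26 to 59 and from 26 to 47.

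The mitochondrial genes split. *Hspd1* (Hsp60, chr1:55077830-55087887), which forms the folding chamber, stood at 821 FPKM with PBS+DMSO, 340.2 with PBS+GSK-J4, 757 with AA+DMSO and 354 with AA+GSK-J4. This gave a log2 ratio of -1.27 without AA and -1.10 with AA, next to *Hspa8* in both. *Hspe1* (Hsp10, chr1:55087966-55091374), the lid of that chamber, stood at 476, 272, 436 and 267 FPKM, log2 ratios of -0.81 and -0.71. These genes are neighbours, and the run of 4 units lies between their RefSeq starts given above, whereas the loci in the deposited tables start *Hspe1* further upstream, so that the run falls inside it. The ratio of *Hspd1* to *Hspe1* within a library was 1.72 in PBS+DMSO and 1.74 in AA+DMSO, and 1.25 in PBS+GSK-J4 and 1.33 in AA+GSK-J4.

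*Hspa9* (mortalin, chr18:34937345-34954685) is the mitochondrial Hsp70 that drives import. It stood at 276 FPKM with PBS+DMSO, 237 with PBS+GSK-J4, 256 with AA+DMSO and 262 with AA+GSK-J4, so the libraries of the 2 treatments overlapped. This gave a log2 ratio of -0.22 without AA and 0.03 with AA, and the other scalings put the first of these at -0.04, 0.07 and 0.17, so that its direction depends on the scaling. The value with AA stayed between 0.03 and 0.37. Its rank went from 186 to 140 and from 185 to 117. The ratio of *Hspd1* to *Hspa9* was 2.97 and 2.95 in the DMSO libraries and 1.43 and 1.35 in the GSK-J4 libraries without and with AA.

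**Figure D2:**
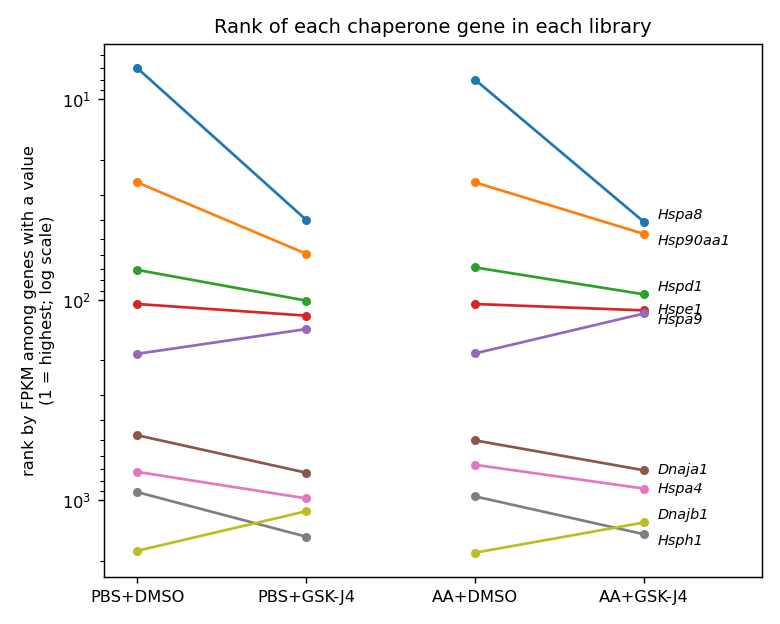
Rank of each chaperone gene by FPKM among all genes with a value (1 is the highest; log scale), in each library, with lines joining the DMSO and GSK-J4 libraries of the same comparison. *Hspa9* and *Dnajb1* rank higher in the GSK-J4 libraries and the other 7 genes rank lower, with *Hspa8* at rank 40 against 7 without AA and 41 against 8 with AA.

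Counted together, 5 of the 9 genes (*Hspa8*, *Hspd1*, *Hsph1*, *Dnaja1* and *Hsp90aa1*) were at least 2-fold lower under GSK-J4 without AA, where 3.5% of 9196 expressed genes were at least 2-fold lower and 4.96% at least 2-fold higher. With AA, 2 of 9 (*Hspa8* and *Hspd1*) were at least 2-fold lower, where 3.38% of 9139 genes were lower and 4.13% higher by that much. None of the 9 was at least 2-fold higher in either comparison. The 2-fold counts depend on how the libraries are scaled: centring on the median of all genes, dividing by upper quartiles and setting equal totals gave 2, 1 and 0 genes without AA, and 1, 0 and 0 with AA. *Hsp90aa1* and *Dnaja1* lay just inside the 2-fold line without AA, and *Hsph1* and *Dnaja1* just outside it with AA. At 1.5-fold, the count was 7 of 9 in both comparisons, beside 19.3% and 17.8% of expressed genes. This count depends on the scaling too. With equal totals, *Hspe1* (-0.42) and *Hspa4* (-0.49) were less than 1.5-fold lower without AA. With AA, so were *Hsp90aa1* (-0.39), *Hspe1* (-0.37), *Hspa4* (-0.46) and *Dnaja1* (-0.53). The 9 genes had a median log2 ratio of -1.01 without AA and -0.79 with AA, against -0.17 and -0.16 over all expressed genes. The 2 comparisons share no library.

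**Figure D3:**
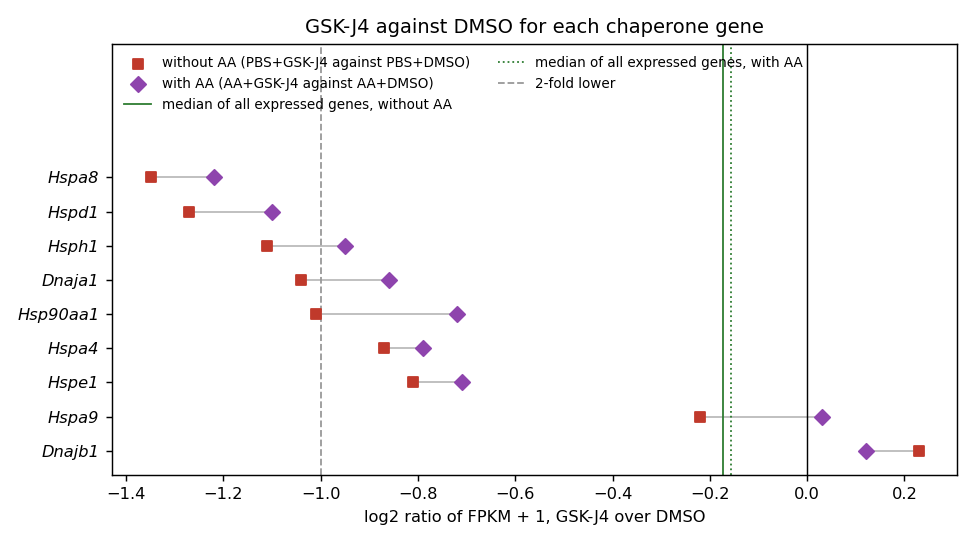
Log2 ratio of FPKM + 1, GSK-J4 over DMSO, for each chaperone gene without AA (squares) and with AA (diamonds), beside the medians of all expressed genes (green lines) and the 2-fold line (dashed). The 7 other genes lie between -1.35 and -0.71 in both comparisons, while *Hspa9* and *Dnajb1* lie between -0.22 and 0.23.

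Highly expressed genes as a whole were lower in the GSK-J4 libraries, so the chaperone genes were also set beside genes above a minimum level. No upper bound was set, so *Hspa8*, *Hsp90aa1* and *Hspd1* were mostly set beside less abundant genes, and level was not matched. Among genes that reached an FPKM of 30 in one or the other library, a level chosen after the data were seen that takes in all 9 members, the median log2 ratio was -0.52 without AA (2161 genes) and -0.47 with AA (2102 genes). Of such genes, 7.59% and 5.66% were at least 2-fold lower. *Hspa8* lay lowest of the members, with only 1.25% of these genes below it without AA and 1.43% with AA. For *Hspd1* the share was 1.76% and 3.66%, for *Hsph1* 3.93% and 7.75%, and for *Dnaja1* 6.02% and 12.6%. *Hsp90aa1* had 7.13% and 23.9% of these genes below it, *Hspa4* 15.6% and 17.5%, and *Hspe1* 21.3% and 25.8%. These 7 genes were thus under the median of the genes that reached 30 FPKM in both comparisons. They were so by less in the case of *Hspe1* and *Hspa4*, and with AA also in the case of *Hsp90aa1*. *Hspa9*, with 76.5% and 86.7% below it, and *Dnajb1*, with 91.7% and 89.6%, lay in the upper part of the same range.

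**Figure D4:**
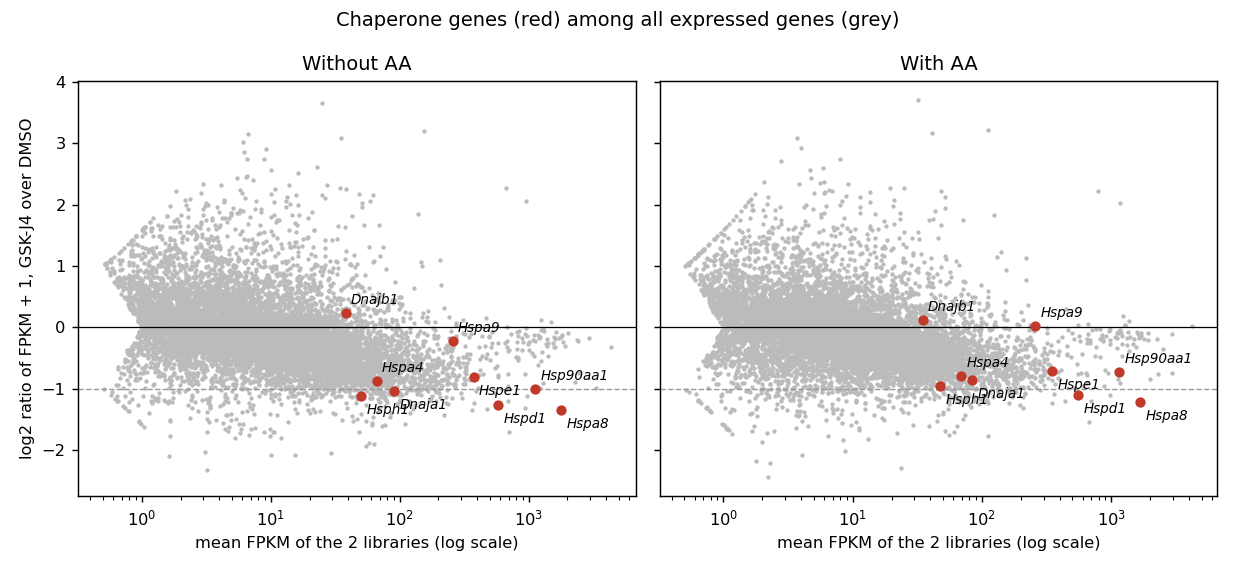
Log2 ratio of FPKM + 1, GSK-J4 over DMSO, against the mean FPKM of both libraries (log scale) for all expressed genes (grey) and the 9 chaperone genes (red), without AA at left and with AA at right; the dashed line marks 2-fold lower. The grey cloud bends below 0 at high levels, and 7 chaperone genes lie in its lower part, whereas *Hspa9* and *Dnajb1* lie in its upper part.

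Ratios between partners within a library show the same data free of any scaling. *Hspa8* over *Dnaja1* was 20.9 with PBS+DMSO, 16.9 with PBS+GSK-J4, 21.4 with AA+DMSO and 16.8 with AA+GSK-J4. *Hspa8* over *Hsph1* was 36.8, 31.6, 36.9 and 31.0. *Hspa8* over *Dnajb1*, a pair added after the data were seen, was 72.8, 24.2, 70.2 and 27.6. The ratio of the main Hsp70 to its class B partner was thus much lower in both GSK-J4 libraries, and its ratio to *Dnaja1* and *Hsph1* was lower by less. *Hspa8* over *Hsp90aa1*, also added, was 1.70, 1.34, 1.62 and 1.15.

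These genes, like most expressed genes, differed little between the libraries with and without AA. In DMSO, AA against PBS gave log2 ratios between -0.16 (*Dnaja1*) and 0.03 (*Hspa4*), with a median of -0.12, beside -0.05 over all expressed genes. Under GSK-J4, AA against PBS gave values between -0.18 (*Dnajb1*) and 0.22 (*Hsp90aa1*), with a median of 0.03, beside -0.02. None of the 9 genes was 1.5-fold apart in either, where 4.31% of 8843 and 4.25% of 9180 expressed genes were 1.5-fold higher or lower. At these shares a set of this size would hold few or none. Of genes that reached 30 FPKM, 10 of 2099 were 1.5-fold lower and 1 higher in DMSO. Under GSK-J4, 13 of 1665 were lower and 2 higher. Both AA comparisons set libraries from separate tables side by side, whose scaling to each other is not stated, and each shares its libraries with the GSK-J4 comparisons.

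The log2 ratio under GSK-J4 was higher with AA than without for 8 of the 9 genes, by 0.08 (*Hspa4*) to 0.29 (*Hsp90aa1*), and lower for *Dnajb1*, by -0.11. The median difference was 0.17. Over 2201 genes that reached an FPKM of 30 in some library, the median difference was 0.05, its quartiles were -0.03 and 0.12, and 66.2% of genes were above 0. With a single library in each condition, this difference was not tested.

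Among related chaperones, the co-chaperones of Hsp90 and the cytosolic chaperonin also had medians well below 0 under GSK-J4, as did the 9 genes. Of 15 Hsp90 co-chaperones with a value, 14 were lower under GSK-J4 in each comparison, 7 of them at least 2-fold without AA and 6 with AA, and the median was -0.86 in both. Over all expressed genes 5798 of 9196 and 5684 of 9139 were lower, and over those that reached 30 FPKM 1880 of 2161 and 1807 of 2102. At least 2-fold lower were 3.5% and 3.38% of all expressed genes, and 7.59% and 5.66% of those that reached 30 FPKM. The 2-fold count of co-chaperones became 3 without AA under each of the scalings above, and 4, 3 and 1 with AA. *Fkbp5*, an immunophilin that binds Hsp90 and steroid receptors, stood at 11.2, 3.58, 10.6 and 3.40 FPKM in PBS+DMSO, PBS+GSK-J4, AA+DMSO and AA+GSK-J4. Its log2 ratios were -1.42 and -1.40. *Ppid* (cyclophilin 40) stood at 125, 47.1, 117 and 47.2 FPKM, log2 ratios of -1.39 and -1.29. At the other end of the list were *Ppp5c*, a phosphatase (-0.17 and -0.26), and *Fnip1* (0.47 and 0.41), the only one that was higher.

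TRiC, the cytosolic chaperonin that folds actin and tubulin, has 6 of its 8 subunit genes in the tables, and all 6 were lower, as were most genes of high level, with a median of -0.92 without AA and -0.76 with AA, beside -0.52 and -0.47 for genes that reached 30 FPKM. They ranged from *Cct7* (312, 152, 302 and 153 FPKM, log2 ratios of -1.03 and -0.97) and *Cct8* (-0.99 and -0.84) to *Cct5* (-0.55 and -0.72) and *Cct4* (-0.45 and -0.39). Of prefoldin, which delivers clients to TRiC, 3 of 6 subunit genes have a value. These were *Pfdn4* (-0.89 and -0.89), *Vbp1* (-0.86 and -0.68) and *Pfdn1* (-0.46 and -0.62). The medians of these 3 lists stayed below 0 under each scaling of the libraries.

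The lists of organelle chaperones moved less than the Hsp90 co-chaperones, TRiC and prefoldin. The 16 genes of mitochondrial import, chaperones and proteases had medians of -0.36 without AA and -0.33 with AA. Those of all expressed genes were -0.17 and -0.16, and those of genes that reached 30 FPKM were -0.52 and -0.47. Both organelle lists hold genes on either side of 30 FPKM. None of the 16 was 2-fold lower, where 3.5% and 3.38% of all expressed genes were, so a list of this size would hold few or none. *Afg3l2*, a protease of the inner membrane (-0.63 and -0.60), and *Dnajc19*, of the import motor (-0.62 and -0.60), were the lowest. *Hscb*, a co-chaperone of iron-sulfur cluster assembly (0.80 and 0.39), and *Clpb*, a disaggregase (0.66 and 0.67), were the highest. Endoplasmic reticulum chaperones had medians of -0.35 and -0.33, also between the medians of all expressed genes and of genes that reached 30 FPKM. They ran from *Hspa5* (BiP, -0.91 and -0.62) and *Hsp90b1* (Grp94, -0.67 and -0.53) to *Canx* (0.10 and 0.27) and *Dnajb9* (0.10 and 0.34). Again none was 2-fold lower, which says little at the shares above. With equal totals for all libraries, the medians of both lists came to between -0.02 and 0.03.

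The heat shock factors and stress-inducible chaperones did not move as a group. Of 12 genes on the list, *Hspa1a*, *Hspa1b* and *Cryab* were not analysed here, and the median of the other 9 was -0.12 without AA and 0.01 with AA, and the first of these changed sign with the scaling. Over genes of the list that reached an FPKM of 5, the medians were -0.49 and -0.23. At least 2-fold higher were 2 of 9 genes without AA (*Hspb8* and *Serpinh1*), where 4.96% of expressed genes were, and 3 of 9 with AA, where 4.13% were. The other was *Dnajb4*, named after its values were seen, at 0.841, 1.80, 0.129 and 1.77 FPKM (0.60 and 1.29), which entered the comparisons only through its GSK-J4 libraries and had to be higher there. *Hsf1*, the factor that drives the heat shock response, stood at 9.32, 4.48, 6.13 and 3.64 FPKM, log2 ratios of -0.91 and -0.62, and *Hsf2* at -0.49 and -0.23. *Hspb1* (Hsp25, -0.56 and -0.45) and *Chordc1*, an Hsp90 partner whose window also holds 4 heat shock units (-0.75 and -0.47), were lower, while the co-chaperone *Bag3* was near 0 (-0.05 and 0.01). *Hspb8*, a small heat shock protein that works with *Bag3*, stood at 9.52, 25.3, 9.90 and 25.8 FPKM, log2 ratios of 1.32 and 1.30. *Serpinh1* (Hsp47), the collagen chaperone of the endoplasmic reticulum, stood at 15.8, 44.4, 14.4 and 37.2 FPKM, log2 ratios of 1.43 and 1.31. Fibroblasts make much *Serpinh1*. The sum of the 4 fibroblast markers was higher in the GSK-J4 libraries, mostly through *Acta2* (12.9, 21.4, 12 and 17.8 FPKM). *Col1a1* was also higher, at 2.83, 4.28, 3.24 and 4.19 FPKM, while *Col1a2* (2.46, 2.76, 2.52 and 2.11) and *Thy1* (2.79, 1.82, 1.78 and 2.13) went both ways. Their part in the value of *Serpinh1* was not tested.

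The remaining Hsp70 and Hsp40 relatives were spread on both sides of 0. The 23 expressed genes had medians of -0.16 and -0.11, near those of all genes and with a sign that depends on the scaling. The medians also depend on level: over genes of this list that reached an FPKM of 5 they were -0.53 and -0.38. *Dnajb6*, a J-domain protein that holds aggregation-prone proteins, stood at 197, 96.8, 177 and 90.1 FPKM (-1.02 and -0.97), and its window holds 3 heat shock units. *Dnaja2*, the class A relative of *Dnaja1*, gave -0.91 and -0.80. *Dnajb2* (0.64 and 0.54) was higher. *Dnaja4* (0.54 and 0.91) was under 1 FPKM in both DMSO libraries. It thus entered the comparisons only through its GSK-J4 libraries and had to be higher there. Among 5 Hsp70 exchange factors and adaptors, with medians of -0.30 and -0.12 whose sign also depends on the scaling, the values ran from *Hspbp1* (-0.70 and -0.81) and *Stub1* (-0.58 and -0.50) to *Bag4* (0.10 and -0.02) and *Bag2* (0.28 and 0.10). Over those that reached an FPKM of 5, the medians were -0.44 and -0.31.

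**Figure D5:**
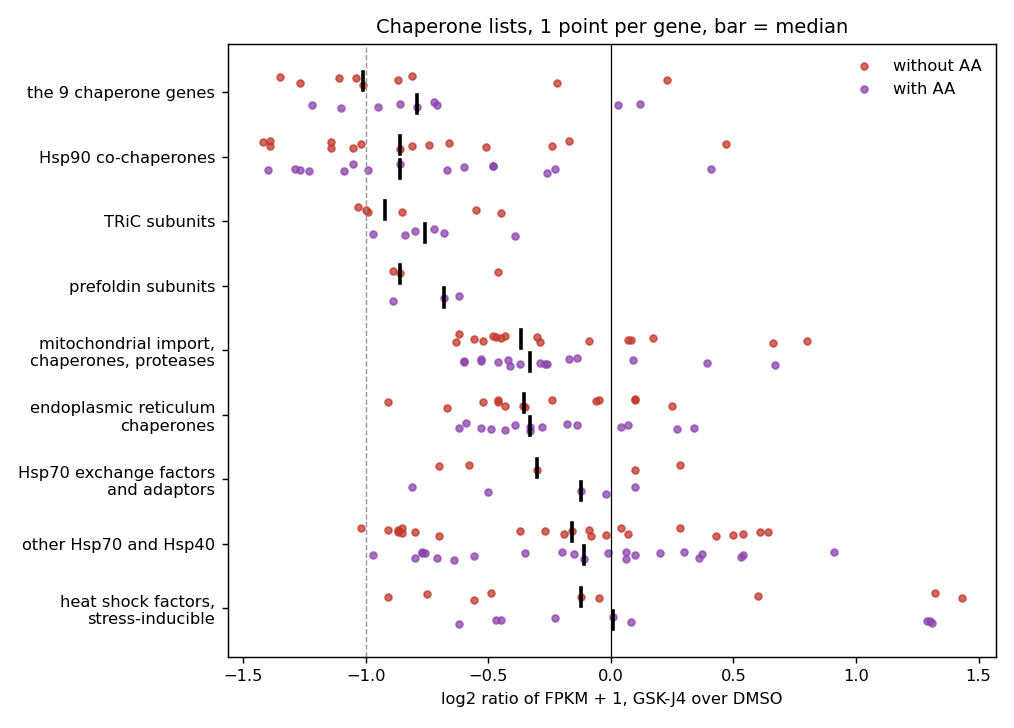
Log2 ratio of FPKM + 1, GSK-J4 over DMSO, for every expressed gene of the 9 chaperone genes and of 8 related lists, 1 point per gene, without AA (upper row of a list) and with AA (lower row), with the median as a black bar. The medians of the 9 chaperone genes, Hsp90 co-chaperones, TRiC and prefoldin lie between -1.01 and -0.68, and those of the other lists between -0.36 and 0.01. The lists were not matched by level.

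Genes with heat shock units in their windows can be set beside genes with a window but no match. Of 45 expressed genes with 3 or more units, 31 (68.9%) were lower under GSK-J4 without AA, with a median of -0.34. Of 6122 genes with no match, 62.8% were lower, with a median of -0.17. With AA, 33 of 44 were lower with a median of -0.39, where 61.8% of 6105 genes with no match were lower with a median of -0.15. Genes with 2 or more units lay near those with no match, 64.8% of 940 and 62.4% of 925 being lower with medians of -0.20 and -0.16. The genes with 3 or more units include *Hspd1* (-1.27 and -1.10), *Hspe1* (-0.81 and -0.71) and *Hsph1* (-1.11 and -0.95), whose low values were reported above. They also include *Chordc1* and *Dnajb6*, and *Hspd1* and *Hspe1* each count for the run they share. The groups were not matched by level. Genes that reached 30 FPKM had medians of -0.52 and -0.47, and 21.3% and 25.8% of them lay below *Hspe1*. Any part of heat shock elements in these values was not tested. Of the members with no match in their windows, *Hspa4* gave -0.87 and -0.79 and *Dnajb1* 0.23 and 0.12.

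Multi-copy sequence limits a part of these values. RefSeq names 6 pseudogenes of *Hspe1*, 5 of *Hspd1*, and 1 each of *Hspa9* and *Dnaja1*, none with a value of its own here. Only pseudogenes named after their parent gene were counted. Copies under other names, such as any of *Hspa8* or *Hsp90aa1*, would be missed. How reads that fit several copies were counted is not given in the sources used here, so levels of these genes are uncertain to that extent.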

How the data were processed

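Total RNA of 4 libraries was sequenced by the authors as single-end reads. They removed duplicates, which can lower abundant genes, aligned the reads with TopHat2 to mm10 (per the submitters' processing notes) and ran Cufflinks2, CummeRbund and Genome Explorer through Maser. Tool versions, the annotation and the scaling between libraries are not given in the sources used here. The authors deposited linear FPKM values, although the columns are headed as log10, in 2 tables of 11033 coding sequence groups. Columns with the authors' fold changes, test statistics, p-values and q-values were not used. One column header, spelled AA_DMAO, was read as AA+DMSO.

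FPKM was summed per gene, and 157 of 9936 genes with a failed estimate were left out. Log2 ratios used a pseudocount of 1, over genes that reached an FPKM of 1 in one or the other library. With 1 library per condition, no test was run. The members and lists were chosen with earlier results of these data known. From each related list, the 2 highest and 2 lowest genes by mean GSK-J4 log2 ratio were named, with *Hsf1*, *Hsf2*, *Hspb1* and *Bag3*. Scripts were tested on simulated data and ran in Python 3.11.15 (matplotlib 3.10.9, pandas 2.3.3, numpy 2.4.6, scipy 1.17.1). Alternatives were pseudocounts of 0.1 and 5, other filters, scalings and fold thresholds, and 1 coding sequence group per gene. The 8 related lists hold 34 named genes. No column of another sample was present (0).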

Additional observations from a re-analysis of the deposited data

Results flagged for a closer look

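Some genes lay on opposite sides of 0 in the 2 GSK-J4 comparisons or in the 2 AA comparisons, and these differences were not tested, since each condition has 1 library. Under GSK-J4, *Hspa9* gave -0.22 without AA and 0.03 with AA, *Bag3* -0.05 and 0.01, and *Bag4* 0.10 and -0.02. AA against PBS gave, in DMSO and then under GSK-J4, -0.13 and 0.01 for *Hspa8*, -0.06 and 0.22 for *Hsp90aa1*, and -0.12 and 0.06 for *Hspd1*. It gave -0.11 and 0.14 for *Hspa9*, -0.13 and 0.03 for *Hsph1*, and -0.16 and 0.02 for *Dnaja1*. All of these log2 ratios are under 1.5-fold.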

How the results depend on the processing

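Of 704 alternative values, 657 stayed within 1.5 times of the reported value (0.58 on the log2 scale) and 47 moved further. A change of sign was looked for only in log2 values of at least 0.58 in size, and none was found. The scalings moved ratios by less than 0.58, so they could not have turned such a value or counted as a move of a ratio. Smaller values did change sign, such as *Hspa9* without AA (-0.22 to 0.17) and several medians of related lists. The 7 lower genes had negative log2 ratios under each alternative, and *Hspa8* ranged from -1.36 to -0.97 without AA. The member median ranged from -1.01 to -0.62 without AA, and with AA it ranged from -0.80 to -0.46. The counts at 2-fold did depend on the scaling. Without AA, 5 members were at least 2-fold lower, but 2 with ratios centred on the median of all genes, 1 with upper quartiles and 0 with equal totals. With AA, the count of 2 became 1, 0 and 0 in the same order, and 7 at 1.5-fold without these scalings. The scalings moved the median of all genes from -0.17 to 0.08 (upper quartiles) and 0.17 (equal totals) without AA, and from -0.16 to 0.07 and 0.14 with AA. The share of FPKM taken by the members, 1.65%, 1.01%, 1.61% and 1.08% in PBS+DMSO, PBS+GSK-J4, AA+DMSO and AA+GSK-J4, was 2.59%, 1.59%, 2.51% and 1.71% when the 100 most abundant genes were left out of the denominator, and 0.939%, 0.643%, 0.929% and 0.712% without *Hspa8*. No paired analysis was possible because no comparison has a second library to pair within it, and a fit over both GSK-J4 comparisons with AA as a block, which would leave 1 residual degree of freedom, was not run. The planned ratio of *Hsp90aa1* to *Hsp90ab1* was not run. Without read counts, the counting error of these values is unknown.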

Other observations

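Other genes of the Hsp90 and mitochondrial lists, chosen after their values were seen, are given as examples and do not stand for their lists. *Stip1* (Hop), which links Hsp70 to Hsp90, stood at 316, 143, 291 and 136 FPKM in PBS+DMSO, PBS+GSK-J4, AA+DMSO and AA+GSK-J4, log2 ratios under GSK-J4 of -1.14 without AA and -1.09 with AA. *Ahsa1*, which speeds the ATP step of Hsp90, gave -1.05 and -0.99, *Fkbp4* -1.14 and -1.27, and *Cacybp* -1.39 and -1.23. *Ptges3* (p23) gave -0.81 and -0.60, and *Cdc37*, which brings kinases to Hsp90, -0.86 and -0.86. On the same list, *Unc45a* (-0.51 and -0.48) and *Tomm34* (-0.24 and -0.23) were lower by less. The partners of mitochondrial Hsp70 gave other values. *Dnaja3*, its J-domain protein, stood at 41.3, 46.5, 42.3 and 45.1 FPKM, log2 ratios of 0.17 and 0.09. *Grpel1*, its exchange factor, gave -0.48 and -0.53, and *Grpel2*, on the same list, 0.07 and -0.17. *Trap1*, the mitochondrial Hsp90, gave -0.45 and -0.46.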
